A study of Homo sapiens with 11 samples.

Results

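The Polycomb system was followed through 10 genes of 60605 features listed for the ARPE-19 libraries. They are the H3K27 methyltransferases EZH1 and EZH2, their partners EED, SUZ12 and JARID2, the Polycomb repressive complex 1 subunits BMI1, RING1 and RNF2, and the H3K27 demethylases KDM6A and KDM6B. The genes were taken by symbol, by a rule that uses no measured value, although earlier results of these data were known when the set was drawn up. All 10 passed the filter on low values. ARPE-19 is a human retinal pigment epithelium (RPE) cell line, and every library came from stable ARPE-19 cells collected when an added open reading frame (ORF) had been expressed for 4 days. The groups were GFP (the control ORF, 3 libraries), Oct4, Sox2 and Klf4 (1 factor each, 2 libraries each) and OSK (all 3 factors together, 2 libraries). The names of all libraries with a factor carry the tag mC, which the GFP names lack. A change from GFP shared by all groups with a factor cannot be told apart from whatever this tag marks. The promoter, the delivery system, the species of the ORFs and the number of independent lines per group are not given in the sources used here. Nothing says that replicates came from separate cultures, so p-values measure only the spread between these libraries, which may be technical.

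Polycomb group proteins keep developmental genes silent in cells that do not need them. Polycomb repressive complex 2 (PRC2) places methyl groups on lysine 27 of histone H3 through EZH2 or EZH1, which work only when bound to EED and SUZ12, and JARID2 helps bring the complex to chromatin. Polycomb repressive complex 1 (PRC1) ubiquitinates histone H2A through RING1 or RNF2, paired with a Polycomb ring finger protein such as BMI1. KDM6A (UTX) and KDM6B (JMJD3) remove the methyl groups of H3K27. EZH2 is the form typical of dividing cells and EZH1 of resting cells, and the CDKN2A and CDKN2B cell cycle inhibitor genes are classic Polycomb targets. Only RNA was measured, and neither the histone marks nor the proteins were analysed here.

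The promoters of 4 members are shown as examples for results below: EZH2 and EZH1 moved in opposite directions, BMI1 was high in the Sox2 libraries and KDM6A was high in the Oct4 libraries. Each run is the 250 bases before the transcription start in the RefSeq table of build GRCh38.p14, 5′ to 3′ on the gene's strand, with capitals marking a match to one of the words searched. The EZH2 run is chr7:148884292-148884541 on the minus strand, and the EZH1 run is chr17:42745041-42745290 on the minus strand. The BMI1 run is chr10:22320849-22321098 on the plus strand, and the KDM6A run is chrX:44872938-44873187 on the plus strand.
EZH2: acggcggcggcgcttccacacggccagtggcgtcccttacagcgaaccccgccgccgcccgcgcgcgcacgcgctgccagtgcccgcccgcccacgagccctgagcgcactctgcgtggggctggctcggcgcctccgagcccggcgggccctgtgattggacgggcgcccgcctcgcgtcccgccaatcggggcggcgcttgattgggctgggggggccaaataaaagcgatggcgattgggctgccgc
EZH1: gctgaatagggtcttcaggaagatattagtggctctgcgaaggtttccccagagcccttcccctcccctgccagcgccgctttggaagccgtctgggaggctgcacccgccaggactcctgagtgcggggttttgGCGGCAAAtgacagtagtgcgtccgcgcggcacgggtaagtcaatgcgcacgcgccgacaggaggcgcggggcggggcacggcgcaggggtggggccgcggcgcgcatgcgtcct
BMI1: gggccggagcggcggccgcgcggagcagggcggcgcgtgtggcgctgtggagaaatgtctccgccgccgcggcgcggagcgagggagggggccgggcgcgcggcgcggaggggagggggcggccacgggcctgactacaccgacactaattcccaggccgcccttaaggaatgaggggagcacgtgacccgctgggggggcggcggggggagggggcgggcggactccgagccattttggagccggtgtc
KDM6A: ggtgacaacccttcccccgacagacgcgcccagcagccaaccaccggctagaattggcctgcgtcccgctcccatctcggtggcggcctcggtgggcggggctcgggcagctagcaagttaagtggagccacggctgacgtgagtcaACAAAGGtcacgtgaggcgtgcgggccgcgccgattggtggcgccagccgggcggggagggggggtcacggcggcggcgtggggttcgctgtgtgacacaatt

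The words were searched on both strands and stand for binding sites of the factors delivered or of the cell cycle regulators of the E2F family. The E2F words were TTTCCCGC or TTTCGCGC or TTTGCCGC or TTTGGCGC, the octamer word of Oct4 was ATGCAAAT, the SOX words were ACAATGG or ACAAAGG, and the KLF word was GGGTGTG. EZH1 held an E2F word, read as GCGGCAAA on its own strand, with its first base 115 bases before the start. SUZ12 held the E2F word TTTCCCGC 189 bases before its start, and KDM6A held the SOX word ACAAAGG 103 bases before its start. The other 7 members, EZH2 and BMI1 among them, held none of these words in this window. EZH2, JARID2, BMI1 and KDM6B each have 2 start windows in the RefSeq table. Only the window nearest the annotated 5′ end of the gene was searched. Of 35116 promoter windows of the same length, 2.79% held an E2F word, 1.63% the octamer, 6.91% a SOX word and 6.63% the KLF word. A match describes letters in this window and is not a measured site.

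Values are the authors' normalised counts, that is, reads per gene divided by 1 factor per library, which gave back 15053300 to 19791775 reads per library. The members had from 122 reads (RNF2) to 2658 reads (KDM6B) in a library. Transcripts of POU5F1, which encodes Oct4, were at 66823 to 67326 in the Oct4 libraries and 19020 to 19542 in the OSK libraries, against 173.8 to 445.6 in the libraries without that ORF. SOX2 was at 29106 to 29141 in the Sox2 libraries and 17582 to 17764 in the OSK libraries, and KLF4 at 22142 to 24205 in the Klf4 libraries and 24202 to 24470 in the OSK libraries. GFP replicate 1 and OSK replicate 1 stood apart, with 42956 and 32493 features detected against 25853 to 26971 in the other 9 libraries. Of 17 RPE markers, 12 reached a value of 100 in some library, while RPE65, DCT and TTR were near 0 throughout (at most 4.63, 9.93 and 4.97). The summed RPE list was 34039 to 38368 in the GFP libraries, 18709 to 19423 in Oct4 and 21617 to 22286 in Sox2. It was 26428 to 29936 in Klf4 and 16242 to 16507 in OSK. KRT8, at 6803 to 16617, was the largest part of that sum in every library. The 9 pluripotent cell markers, without the delivered factors, summed to 454.9 to 671 in the GFP libraries and to 218.3 to 441 in the others. The 671 was in GFP replicate 1, which stood apart in features detected. NANOG, DPPA2, ZFP42, DNMT3L and UTF1 had at most 17 reads in a library, with DPPA2 and DNMT3L at 0 in some. The other 4 were at 10 or more in every library: LIN28A (104.5 to 310.8), DPPA4 (58.2 to 144), TDGF1 (25.7 to 77.5) and SALL4 (24 to 76.5). The 8 fibroblast markers summed to 14138 to 16755 in the GFP libraries, 10994 to 14127 in Oct4 and 13278 to 16183 in Sox2. Their sum was 7355 to 8642 in Klf4 and 5188 to 6030 in OSK, with DCN, LUM and PDGFRA at 0 in some libraries. COL1A1 (557.2 to 8369) and PDGFRB (4529 to 11534) made up most of that sum in every library. The part of these marker shifts in the member results was not tested, and in bulk RNA fewer cells of a type and less RNA per cell cannot be told apart.

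The first question was which subunits changed with each factor. In the Oct4 libraries 3 of 10 members passed the test against GFP, all higher: KDM6A, JARID2 and RING1. In the Sox2 libraries 6 passed, with BMI1, KDM6B, EED and SUZ12 higher and KDM6A and EZH1 lower. In the Klf4 libraries 5 passed, with EZH2 higher and EZH1, RNF2, KDM6A and KDM6B lower, and in the OSK libraries 5 passed, with JARID2 and EZH2 higher and EZH1, RNF2 and KDM6B lower. These calls come from limma on log2(value + 1) over 18828 genes at a Benjamini-Hochberg adjusted p under 0.05.

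Large shares of all genes passed the same test, and the members' counts are read against them. For Oct4 against GFP 37.3% of the genes tested passed, 20.1% higher and 17.2% lower. For Sox2 the share was 41.6%, 21.7% higher and 19.9% lower. For Klf4 it was 33.5%, 17.6% higher and 16% lower, and for OSK 39.7%, 19.7% higher and 20% lower. The median log2 change of the 10 members was 0.15 for Oct4, 0.24 for Sox2, -0.20 for Klf4 and -0.13 for OSK, beside -0.02, -0.02, -0.02 and -0.01 over all genes tested. No count of members is therefore given as a result about the set. The 4 comparisons share the GFP libraries.

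**Figure D1:**
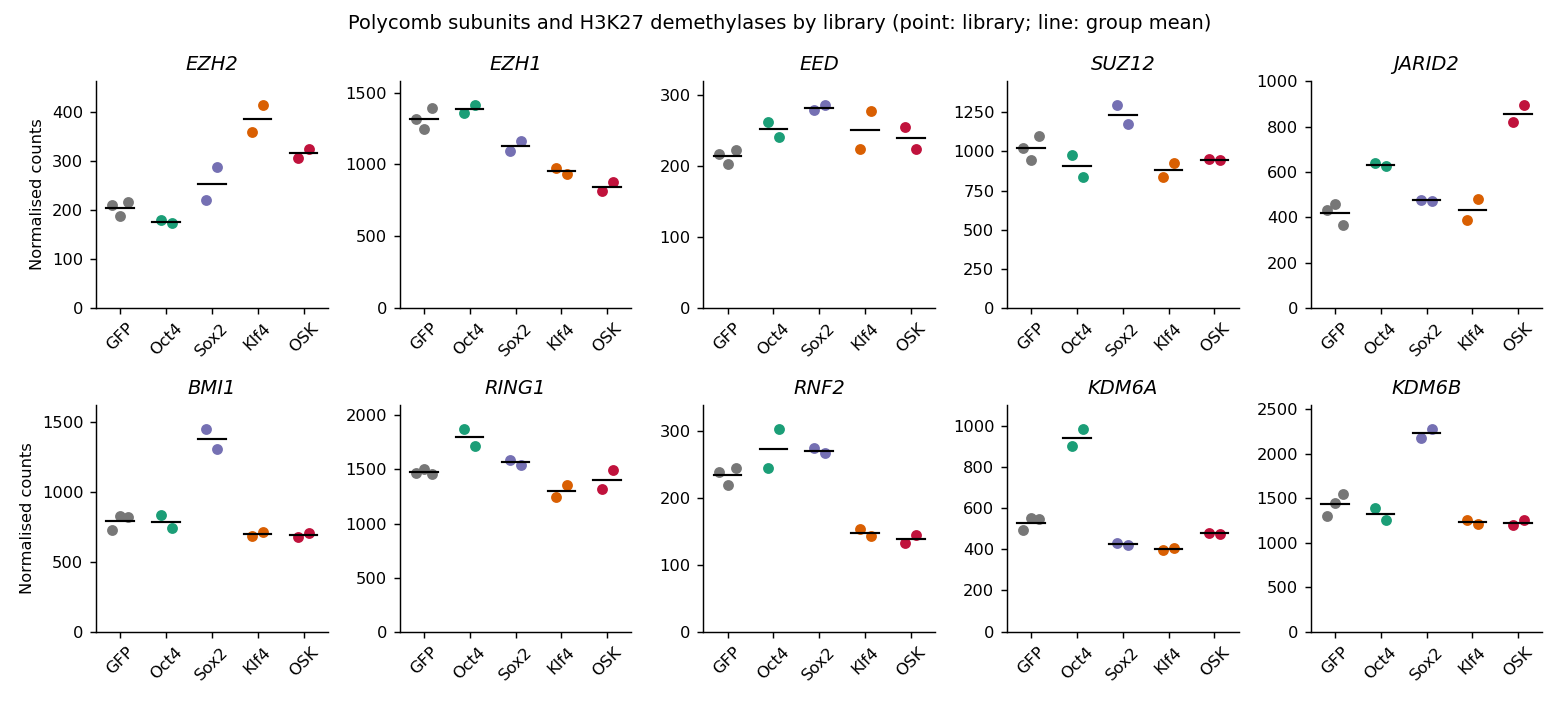
Normalised counts of the 10 members in each of the 11 libraries, grouped as GFP, Oct4, Sox2, Klf4 and OSK (points are libraries, lines are group means). EZH2 is highest in the Klf4 libraries, BMI1 and KDM6B in the Sox2 libraries, KDM6A in the Oct4 libraries and JARID2 in the OSK libraries.

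EZH2, the PRC2 methyltransferase typical of dividing cells, was at 209.5, 188.2 and 216.8 normalised counts in the GFP libraries. It was at 359.7 and 413.6 in the Klf4 libraries and 306.8 and 324.5 in the OSK libraries. The Klf4 and OSK libraries all lay above every GFP, Oct4 and Sox2 library. EZH2 rose by 0.91 (log2) with Klf4 (SE 0.13, limma adjusted p = 4.07e-05) and by 0.62 with OSK (SE 0.13, adjusted p = 0.000975), to 1.89 and 1.54 times the GFP mean.

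In the Sox2 libraries EZH2 was at 219.9 and 286.8, both above the GFP libraries but far from each other. The log2 change was 0.30 (95% interval 0.02 to 0.57, limma adjusted p = 0.0777). It passed with edgeR on the recovered reads scaled by TMM (adjusted p = 0.0486) and without Sox2 replicate 1 (0.0199), and its adjusted p ranged from 0.0199 to 0.645 over the alternatives. In the Oct4 libraries EZH2 was at 178.8 and 172.8, below all 3 GFP libraries, with a log2 change of -0.22 (-0.49 to 0.06, adjusted p = 0.207). The Oct4 libraries held the lowest EZH2 values of the series.

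EZH1, the methyltransferase found mostly in resting cells, ran the other way. It was at 1317, 1249 and 1391 in the GFP libraries and at 1359 and 1411 in the Oct4 libraries, which overlap. It was at 1096 and 1164 in the Sox2 libraries, 971.6 and 930.1 in the Klf4 libraries and 813 and 877.7 in the OSK libraries. These 3 groups did not overlap one another or GFP, and their order from high to low was Sox2, Klf4 and OSK.

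EZH1 fell by 0.47 on the log2 scale with Klf4 (SE 0.07, limma adjusted p = 0.000106) and by 0.64 with OSK (SE 0.07, adjusted p = 3.33e-06). With Sox2 it fell by 0.22 (adjusted p = 0.0224), a call that was lost in 4 of 15 alternatives, among them leaving out Sox2 replicate 1 (0.18) or GFP replicate 3 (0.0851), with adjusted p from 0.0167 to 0.18. In the Oct4 libraries the change was 0.07 (95% interval -0.08 to 0.23, adjusted p = 0.483).

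The balance of the pair can be read within each library, as the ratio of the 2 genes' normalised counts per kilobase of exon. The EZH2 to EZH1 ratio was 0.246, 0.233 and 0.241 in the GFP libraries and 0.203 and 0.189 in the Oct4 libraries. It was 0.31 and 0.381 with Sox2, 0.572 and 0.687 with Klf4 and 0.583 and 0.571 with OSK. EZH1 therefore stayed the more abundant of the 2 transcripts per length in all 11 libraries, and the Klf4 and OSK ranges overlapped.

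EED and SUZ12 are the subunits without which the enzyme does not work. EED, which binds the methylated tail and activates the enzyme, was at 217.5, 203.3 and 222.6 in the GFP libraries. It was at 262.4 and 241.5 with Oct4, 279.4 and 286 with Sox2, 224.4 and 277.7 with Klf4 and 254.8 and 224.4 with OSK. All libraries with a factor lay above the GFP libraries, and only the Sox2 change passed the test. There EED rose by 0.40 on the log2 scale (SE 0.12, limma adjusted p = 0.0141), a call that was lost with DESeq2 (adjusted p = 0.0542). It was also lost without either Sox2 library, although the log2 change stayed at 0.41 without replicate 1 and 0.38 without replicate 2.

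SUZ12, the subunit that holds PRC2 together, was at 1021, 942.9 and 1097 in the GFP libraries and at 1294 and 1176 with Sox2, where it rose by 0.28 on the log2 scale (SE 0.09, limma adjusted p = 0.0191). The Sox2 libraries lay above all others, but the call was lost without Sox2 replicate 1 (0.195) or GFP replicate 2 (0.0755) and with no filter on low values (0.0632), and the alternatives ran from 0.0128 to 0.195. SUZ12 was at 976.6 and 838.9 with Oct4, 838.6 and 923.2 with Klf4 and 949.6 and 944.8 with OSK. None of these 3 changes passed, and the Klf4 change of -0.21 (95% interval -0.40 to -0.02, adjusted p = 0.0808) did so only without GFP replicate 2 (0.0435), in a range from 0.0435 to 0.423. The pseudogene SUZ12P1, at 144.7 to 224.1, is a partial copy of the gene, so reads could have been split between them.

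JARID2, a PRC2 cofactor that is abundant in pluripotent cells, was at 432, 459.3 and 368.4 in the GFP libraries. It was at 641 and 624.9 with Oct4 and at 820.6 and 894.2 with OSK. The Oct4 and OSK libraries lay above every other library and did not overlap each other. JARID2 rose by 0.60 on the log2 scale with Oct4 (SE 0.11, limma adjusted p = 0.000402) and by 1.03 with OSK (SE 0.11, adjusted p = 1.41e-06), the latter to 2.04 times the GFP mean.

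With Sox2 JARID2 was at 478 and 470.9, and with Klf4 at 386.3 and 481.1. The log2 changes were 0.18 (95% interval -0.05 to 0.41, limma adjusted p = 0.203) and 0.04 (-0.19 to 0.28, adjusted p = 0.795). The Klf4 libraries overlapped GFP, while the Sox2 libraries lay just above it.

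**Figure D2:**
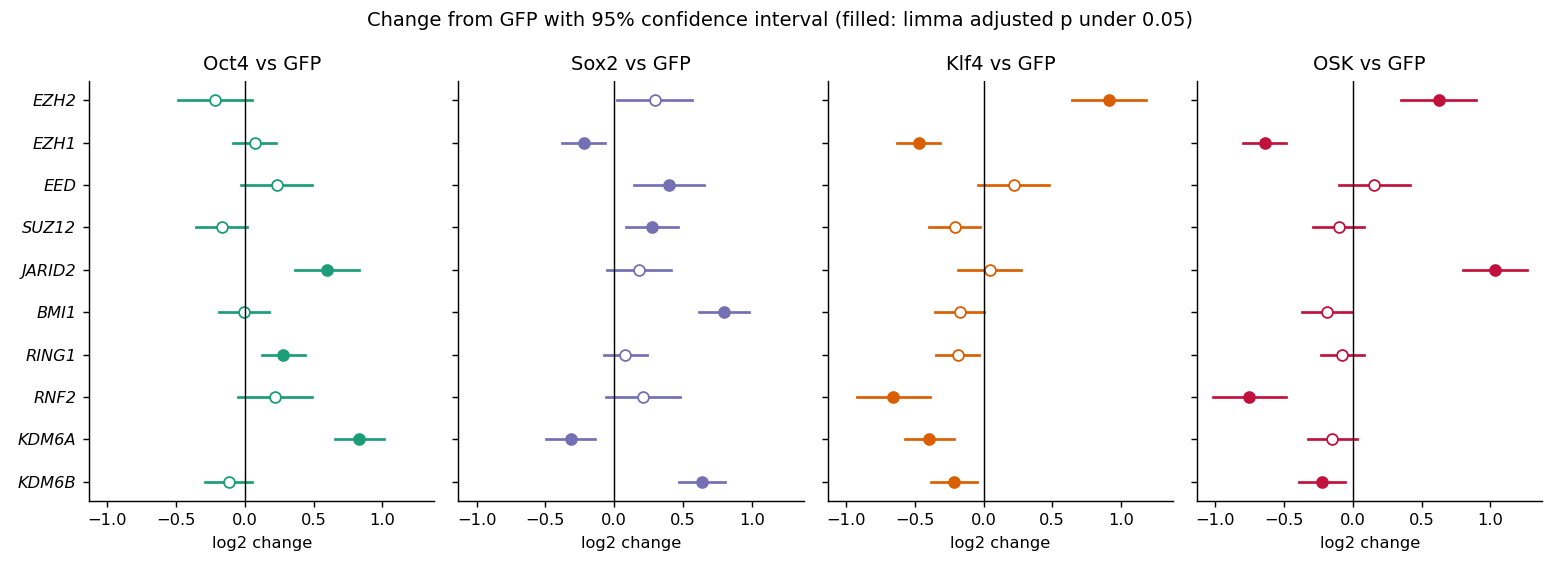
Log2 change from GFP of each member in the Oct4, Sox2, Klf4 and OSK libraries (points are limma estimates, bars are 95% intervals, filled points passed an adjusted p of 0.05). The largest rise is JARID2 with OSK (1.03) and the largest fall is RNF2 with OSK (-0.75).

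Among the PRC1 subunits, BMI1, the ring finger protein that partners RING1 and RNF2 and restrains CDKN2A, moved with Sox2. It was at 729.9, 824.5 and 822.4 in the GFP libraries and at 1450 and 1304 in the Sox2 libraries, 1.74 times the GFP mean. Its log2 rise was 0.80 (SE 0.08, limma adjusted p = 1.31e-06). BMI1 was at 833.7 and 742.8 with Oct4, 685.9 and 716.4 with Klf4 and 679.7 and 708.3 with OSK.

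The Klf4 and OSK libraries all lay below the 3 GFP libraries for BMI1, with log2 changes of -0.17 (95% interval -0.35 to 0.01, limma adjusted p = 0.132) and -0.19 (-0.37 to -0.01, adjusted p = 0.0907). Without GFP replicate 1 these changes passed (0.0393 and 0.0245), and over the alternatives the adjusted p ran from 0.0393 to 0.407 for Klf4 and from 0.0245 to 0.321 for OSK. In GENCODE 29, 23.3% of the exon bases of BMI1 are shared with the read-through gene COMMD3-BMI1, which had at most 2 reads in a library.

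RNF2, the main H2A ubiquitin ligase of PRC1, was at 238.3, 219.5 and 245 in the GFP libraries. It was at 153.8 and 142.8 with Klf4 and 132.3 and 145.2 with OSK, and these 4 libraries lay below all others. RNF2 fell by 0.66 on the log2 scale with Klf4 (SE 0.13, limma adjusted p = 0.000722) and by 0.75 with OSK (SE 0.13, adjusted p = 0.000155), to 0.633 and 0.592 of the GFP mean. With Oct4 it was at 245 and 303.3 and with Sox2 at 274.9 and 267.2, and neither change passed (0.22, adjusted p = 0.192, and 0.21, adjusted p = 0.201).

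RING1, the second ligase, was at 1471, 1505 and 1461 in the GFP libraries and at 1873 and 1718 with Oct4. Both Oct4 libraries were above all others, and RING1 rose by 0.28 on the log2 scale (SE 0.07, limma adjusted p = 0.00733). The call was lost without Oct4 replicate 1 (0.102), in a range from 0.00708 to 0.102. RING1 was at 1583 and 1545 with Sox2, 1246 and 1354 with Klf4 and 1315 and 1496 with OSK, and none of these changes passed.

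The RNF2 to RING1 ratio per kilobase was 0.0723, 0.0651 and 0.0748 in the GFP libraries. It was 0.0551 and 0.0471 with Klf4 and 0.0449 and 0.0433 with OSK, below all GFP libraries, against 0.0584 and 0.0788 with Oct4 and 0.0775 and 0.0772 with Sox2. RING1 was the more abundant of the pair in every library.

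**Figure D3:**
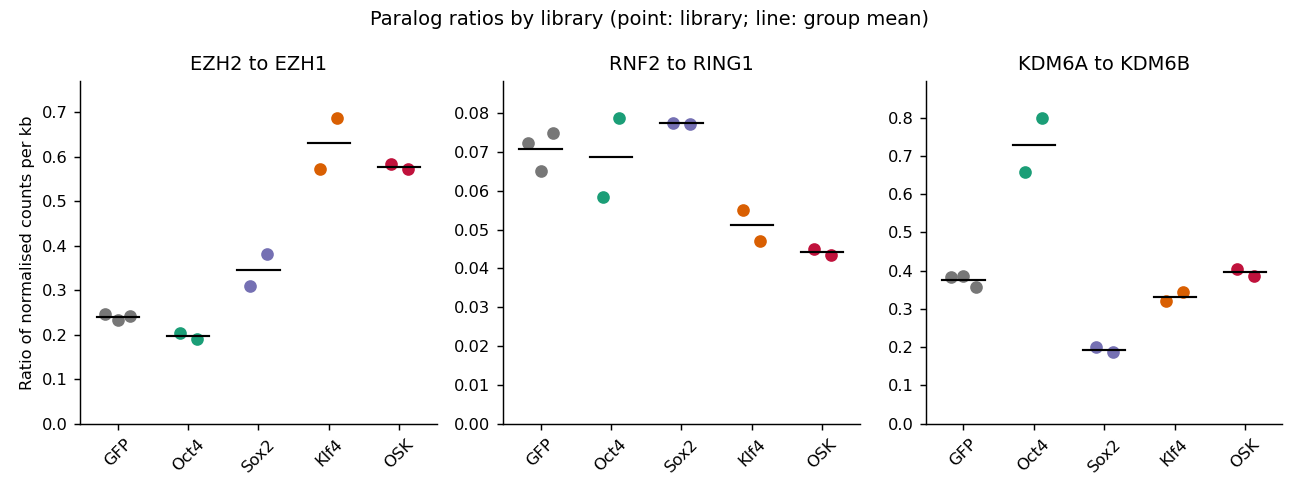
Ratio of normalised counts per kilobase of exon within each library for EZH2 to EZH1, RNF2 to RING1 and KDM6A to KDM6B (points are libraries, lines are group means). EZH2 to EZH1 is above 0.5 only with Klf4 and OSK, and KDM6A to KDM6B runs from 0.188 in a Sox2 library to 0.8 in an Oct4 library.

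The 2 demethylases rose in different lines, KDM6A with Oct4 and KDM6B with Sox2. KDM6A, which sits on the X chromosome and works within the KMT2C and KMT2D complexes, was at 492.6, 550.3 and 545.3 in the GFP libraries and at 901.1 and 983.2 with Oct4. The Oct4 libraries lay far above all others, at 1.78 times the GFP mean. KDM6A rose by 0.83 on the log2 scale (SE 0.08, limma adjusted p = 1.01e-06).

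KDM6A was below GFP in the other lines. It was at 428.6 and 420.4 with Sox2, 396.7 and 407.9 with Klf4 and 477 and 476.3 with OSK. It fell by 0.32 on the log2 scale with Sox2 (SE 0.08, limma adjusted p = 0.00627) and by 0.39 with Klf4 (SE 0.08, adjusted p = 0.00173). The OSK change of -0.15 (95% interval -0.33 to 0.03, adjusted p = 0.178) did not pass, although both libraries lay below the 3 GFP libraries.

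KDM6B, the demethylase induced by many signals, was at 1303, 1451 and 1547 in the GFP libraries and at 2180 and 2276 with Sox2. The Sox2 libraries lay above all others, and KDM6B rose by 0.64 on the log2 scale (SE 0.08, limma adjusted p = 7.33e-06), to 1.55 times the GFP mean. It was at 1391 and 1250 with Oct4, 1260 and 1207 with Klf4 and 1197 and 1254 with OSK.

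With Klf4 and OSK the KDM6B values lay below all 3 GFP libraries, and the falls of 0.21 and 0.22 (log2) were close to the threshold (limma adjusted p = 0.04999 and 0.0359). The Klf4 call was lost in 12 of 15 alternatives, including without either Klf4 library, GFP replicate 2 or GFP replicate 3, with adjusted p from 0.00563 to 0.23. The OSK call was lost in 10 of 15, including without either OSK library, GFP replicate 2 or GFP replicate 3, with adjusted p from 0.00354 to 0.204. The KDM6A to KDM6B ratio per kilobase was 0.384, 0.386 and 0.358 in the GFP libraries, 0.659 and 0.8 with Oct4, 0.2 and 0.188 with Sox2, 0.32 and 0.344 with Klf4 and 0.405 and 0.386 with OSK. The Oct4 and Sox2 libraries thus sat at opposite ends, with no overlap with any other group.

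Per kilobase of exon, RING1 was the most abundant member in the GFP libraries (813.5 ± 12.8, SD, n = 3) and EED the least (30.6 ± 1.42). Between them came KDM6B (197 ± 16.9), EZH1 (189 ± 10.1), BMI1 (185 ± 12.6), SUZ12 (156 ± 11.7), KDM6A (74.2 ± 4.48), JARID2 (69.8 ± 7.75), RNF2 (57.5 ± 3.24) and EZH2 (45.3 ± 3.29). The libraries of KDM6B, EZH1 and BMI1 overlapped in that order, as did those of KDM6A and JARID2. The order depends on the length used. EED and EZH2 had close GFP means before division (214.5 and 204.8 normalised counts), with exon lengths of 7016 and 4522 bases.

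The OSK libraries carry all 3 factors, and the next comparisons ask how they differ from each factor alone. Against Klf4 alone, 1 member passed, JARID2, where 21.5% of all genes tested did. JARID2 was higher in OSK by 0.99 on the log2 scale (SE 0.12, limma adjusted p = 1.46e-05). For EZH2 the difference from Klf4 was -0.29 (95% interval -0.59 to 0.01, adjusted p = 0.17), for EZH1 -0.17 (-0.34 to -6.64e-05, unadjusted p = 0.0499, adjusted p = 0.155) and for RNF2 -0.10 (-0.39 to 0.20, adjusted p = 0.692). None of these 3 passed after adjustment, and the unadjusted interval of EZH1 lies just below 0.

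Against Oct4 alone, 6 members passed in OSK (40.3% of all genes tested). EZH2 was higher by 0.84 and JARID2 by 0.44 on the log2 scale, while KDM6A, RNF2, EZH1 and RING1 were lower (log2 differences of -0.98, -0.97, -0.71 and -0.35). The limma adjusted p was 3.64e-07 for KDM6A, the largest of these differences. POU5F1 transcripts were also lower in the OSK than in the Oct4 libraries, as given above, and whether that level bears on KDM6A was not tested. The JARID2 call was lost without OSK replicate 2 (adjusted p = 0.0784), in a range from 0.00239 to 0.0784.

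Against Sox2 alone, 6 members passed in OSK (40.5% of all genes tested). JARID2 was higher by 0.85 on the log2 scale, and BMI1, RNF2, KDM6B, EZH1 and SUZ12 differed by -0.99, -0.96, -0.86, -0.42 and -0.38. BMI1 and KDM6B, the genes that stood out with Sox2 alone, were thus lower in OSK than in Sox2 (limma adjusted p = 3.61e-07 and 8.44e-07). SOX2 transcripts were also lower in the OSK than in the Sox2 libraries, as given above. Whether that level bears on BMI1 and KDM6B was not tested. The SUZ12 call was lost without Sox2 replicate 1 (0.0655), in a range from 0.00205 to 0.0655.

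Comparisons between single factors gave 7 members for Oct4 against Sox2 (33.4% of all genes tested), 6 for Oct4 against Klf4 (41.7%) and 7 for Sox2 against Klf4 (40.8%). With Oct4, KDM6A, JARID2 and EZH1 were higher than with Sox2 (log2 differences of 1.15, 0.42 and 0.29), and BMI1, KDM6B, EZH2 and SUZ12 were lower (-0.80, -0.76, -0.51 and -0.45). KDM6A, RNF2, JARID2, EZH1 and RING1 were higher with Oct4 than with Klf4 (1.22, 0.87, 0.55, 0.54 and 0.47), and EZH2 was lower (-1.13). BMI1, RNF2, KDM6B, SUZ12, RING1 and EZH1 were higher with Sox2 than with Klf4 (0.97, 0.87, 0.85, 0.49, 0.27 and 0.25), and EZH2 was lower (-0.62). There the RING1 call was lost without Klf4 replicate 1 or Sox2 replicate 1, and the EZH1 call without Klf4 replicate 2 or Sox2 replicate 2. In the Oct4 against Sox2 comparison, the JARID2 call (0.42) was lost whichever of the 4 libraries was taken out, with log2 differences from 0.40 to 0.43. The EZH1 call (0.29) was lost without Oct4 replicate 2 or Sox2 replicate 1. The EZH2 call (-0.51) was lost without Oct4 replicate 2 or Sox2 replicate 2, and with only the compared groups (limma adjusted p = 0.0676). Fewer members passed without Oct4 replicate 2, as did fewer of all genes tested.

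If the 3 factors acted independently on the log scale, each at its level alone, the OSK change would equal the sum of the single changes. Against that sum, 3 members passed, all below it, where 35.9% of all genes tested differed: BMI1 (-0.80, SE 0.17, limma adjusted p = 0.00147), EED (-0.69, SE 0.24, 0.0349) and KDM6B (-0.53, SE 0.16, 0.0161). BMI1 kept its call in all 20 alternatives, with adjusted p from 0.00144 to 0.0134. EED lost it in 9 of 20, with adjusted p from 0.0139 to 0.122, among them without GFP replicate 2, Klf4 replicate 2, Oct4 replicate 1, OSK replicate 2 or either Sox2 library. KDM6B lost it in 3, without Oct4 replicate 1 (0.0519), with no filter on low values (0.0525) and without GFP replicate 1 and OSK replicate 1 together (0.0907), in a range from 0.00838 to 0.0907. For JARID2 the distance from the sum was 0.21 (95% interval -0.25 to 0.67, adjusted p = 0.491). POU5F1 and SOX2 transcripts were lower in OSK than with that factor alone, as given above. The part of these levels in the distances from the sum was not tested.

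Genes of cell division also differed between the groups, and their values stand here beside EZH2. The 30 proliferation genes summed to 8824 to 9344 normalised counts in the GFP libraries, 7816 to 8213 in Oct4, 12927 to 12945 in Sox2, 20234 to 22743 in Klf4 and 20278 to 20680 in OSK. Of the 30, 8 rose and 5 fell with Oct4, 23 rose and 1 fell with Sox2, 28 rose and 1 fell with Klf4, and 27 rose and 0 fell with OSK. Their median log2 changes were 0.08, 1.05, 1.89 and 1.93. The groups with a high proliferation sum were those with high EZH2, and the part of cell division in the EZH2 result was not tested.

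MKI67, a marker of cycling cells, changed by 0.34 with Oct4, 2.07 with Sox2, 3.45 with Klf4 and 3.25 with OSK, as log2 changes (limma adjusted p = 0.0418, 1.75e-09, 1.55e-11 and 1.93e-11). TOP2A, a topoisomerase of dividing cells, changed by 0.28, 1.59, 3.12 and 2.82, and E2F1, a driver of S phase entry, by 0.51, 2.36, 3.64 and 3.51. The Oct4 changes of MKI67, TOP2A and E2F1 were lost in 11, 4 and 3 alternatives, among them leaving out Oct4 replicate 1 (MKI67 and E2F1), Oct4 replicate 2 (MKI67 and TOP2A) and GFP replicate 1 or 3 (MKI67), while those with Sox2, Klf4 and OSK were kept in all. MCM2, a helicase subunit, fell by 0.53 with Oct4 and rose by 0.50 with Klf4 (adjusted p = 0.00626 and 0.0112), with changes of 0.19 for Sox2 and 0.28 for OSK that did not pass. Its Oct4 call was lost without Oct4 replicate 1 (0.0872) and its Klf4 call without Klf4 replicate 1 (0.102) or without GFP replicate 1 and OSK replicate 1 (0.0503), whereas its Sox2 and OSK changes passed without GFP replicate 2 (0.0494 and 0.016). EZH2 is not on that list, and set against the list's sum its value came to the following percentages: 2.34, 2.01 and 2.46 in the GFP libraries, 2.18 and 2.21 in Oct4, 1.7 and 2.22 in Sox2, 1.78 and 1.82 in Klf4 and 1.48 and 1.6 in OSK. This ratio was lower in all Klf4 and OSK libraries than in the GFP libraries.

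**Figure D4:**
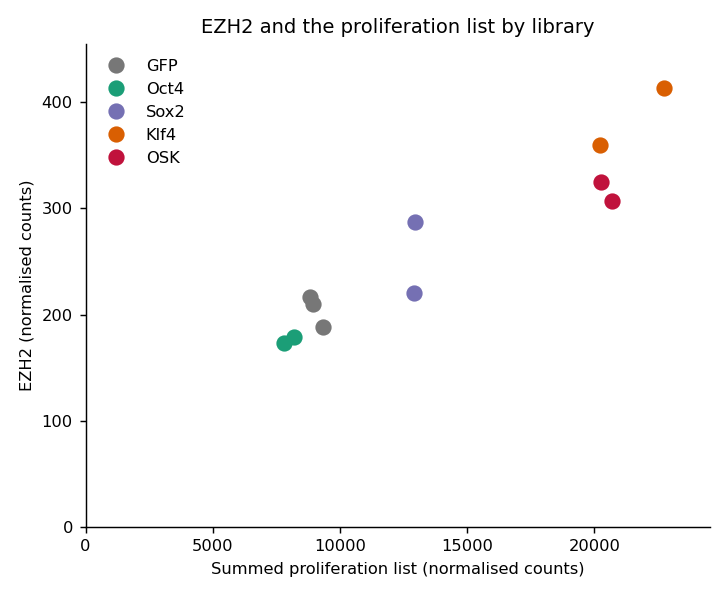
EZH2 normalised counts against the summed normalised counts of the 30 proliferation genes in the 11 libraries, coloured by group. The Klf4 and OSK libraries lie at sums from 20234 to 22743 and EZH2 values from 306.8 to 413.6, and the GFP and Oct4 libraries at sums from 7816 to 9344 and EZH2 values from 172.8 to 216.8.

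The other genes of the system came from 4 lists of 53 genes, of which 51 were tested: PRC2 accessory subunits, other PRC1 subunits, H2A deubiquitinase subunits and the KMT2C and KMT2D partner complex of KDM6A. With Oct4 25 of them passed (15 higher, 10 lower), with Sox2 22 (13 and 9), with Klf4 19 (11 and 8) and with OSK 22 (16 and 6). These are 49%, 43.1%, 37.3% and 43.1% of the 51, beside the shares of all genes given above.

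Of the 9 PRC2 accessory genes tested, 4 rose and 3 fell with Oct4, 3 rose and 2 fell with Sox2, 2 rose and 2 fell with Klf4, and 4 rose and 1 fell with OSK. PHF19, a Polycomb-like protein that guides PRC2 to its sites, was at 102.2 to 135.1 in the GFP libraries. It was at 366.5 to 379.2 with Sox2, 286.9 to 291.4 with Klf4 and 262.3 to 298.1 with OSK, with log2 rises of 1.65, 1.29 and 1.24 (limma adjusted p = 4.28e-08, 1.29e-06 and 1.35e-06). With Oct4 it was at 149.9 to 155.6, and that rise of 0.37 (adjusted p = 0.0343) was lost in 8 alternatives, among them without GFP replicate 2, GFP replicate 3 or either Oct4 library, with adjusted p up to 0.151.

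EPOP, an Elongin-binding PRC2 subunit, was at 150.9 to 203.3 in the GFP libraries and lower in all others. It was at 80.1 to 88.1 with Oct4, 55 to 57.4 with Sox2, 53.7 to 69.4 with Klf4 and 71.6 to 72.6 with OSK. It fell with each factor (log2 changes of -1.05, -1.63, -1.51 and -1.27), and each limma adjusted p was 0.00034 or lower. LCOR, whose locus also encodes a PRC2 cofactor, rose with Oct4 (0.85), Sox2 (0.60) and OSK (0.26, lost without either OSK library or GFP replicate 2), and its relative LCORL rose with Klf4 (0.58) and OSK (0.84). RBBP7, a histone-binding subunit, rose with Oct4 (0.46).

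Among the 24 other PRC1 genes, 7 rose and 3 fell with Oct4, 6 rose and 6 fell with Sox2, 4 rose and 6 fell with Klf4, and 6 rose and 5 fell with OSK. KDM2B, which brings a variant PRC1 to CpG islands, was at 562.5 to 585.2 in the GFP libraries and 1088 to 1143 with Oct4 (log2 rise 0.95, limma adjusted p = 1.97e-07), and it fell with Klf4 (-0.40). CBX7, a chromodomain reader of methylated H3K27, was at 755.7 to 772.8 with GFP and 1312 to 1424 with Klf4, with no overlap. It rose by 0.84 with Klf4 (adjusted p = 4.46e-07) and fell with Sox2 (-0.28, lost without Sox2 replicate 1). Its fall with Oct4 (-0.21) and its rise with OSK (0.21) were each lost in 9 alternatives.

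PHC1, a Polyhomeotic subunit, fell with Klf4 and OSK (log2 changes of -0.74 and -0.82) and rose with Oct4 (0.34). SCMH1, a partner of the Polyhomeotic proteins, fell with Klf4 (-0.58) and OSK (-0.92) and rose with Sox2 (0.59), and its rise with Oct4 (0.33) was lost in 6 alternatives. E2F6, a repressor in a variant PRC1, fell with each of Oct4 (-0.61), Sox2 (-0.61), Klf4 (-0.70) and OSK (-0.46, adjusted p = 0.0609 without GFP replicate 1 and OSK replicate 1). BCOR, another variant PRC1 subunit, fell with Sox2 (-0.75), and its fall with Oct4 (-0.28) was lost in 6 alternatives. PHC3 rose with all 4 (0.47, 0.40, 0.30 and 0.39), and YAF2 rose with Sox2 (0.67), a call lost without Sox2 replicate 1 (0.0882).

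The H2A deubiquitinase list holds enzymes that undo the mark of PRC1 and partner proteins of such enzymes. Of 9 genes tested, 1 rose and 1 fell with Oct4, 1 rose with Sox2, 2 rose with Klf4 and 3 rose with OSK. ASXL2, a cofactor of the deubiquitinase BAP1, rose with Klf4 (0.31) and OSK (0.72, limma adjusted p = 1.18e-06). USP16 rose with Oct4 (0.34) and Sox2 (0.36), MYSM1 rose with OSK (0.36) and FOXK1 with OSK (0.37, but 0.23 and adjusted p = 0.0646 without GFP replicate 1 and OSK replicate 1). The Oct4 fall of FOXK2 (-0.20) and the Klf4 rise of MYSM1 (0.20) were lost in 7 and 9 alternatives, including without either library of the factor, and the Klf4 rise of ASXL2 was lost without Klf4 replicate 1 (0.055).

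The complex in which KDM6A works joins H3K27 demethylation to H3K4 methylation. Of its 9 genes 3 rose and 3 fell with Oct4, 3 rose and 1 fell with Sox2, and 3 rose with Klf4 and 3 with OSK. RBBP5 rose with Oct4, Sox2 and OSK (0.72, 0.43 and 0.22, the last lost in 9 alternatives, including without either OSK library) and PAXIP1 with Oct4 (0.73), while PAGR1 fell with Oct4 (-0.52). KMT2C, a methyltransferase of the complex, was at 2034 to 2172 with GFP, 3155 to 3220 with Klf4 and 3375 to 3460 with OSK, and it rose by 0.62 and 0.72 with these and by 0.33 with Oct4 (limma adjusted p = 1.45e-06, 1.75e-07 and 0.000572). The other methyltransferase, KMT2D, rose with Sox2 (0.27, lost without Sox2 replicate 1), ASH2L rose with Sox2, Klf4 and OSK (0.44, 0.33 and 0.44), and DPY30 rose with Klf4 (0.36, lost without Klf4 replicate 2).

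**Figure D5:**
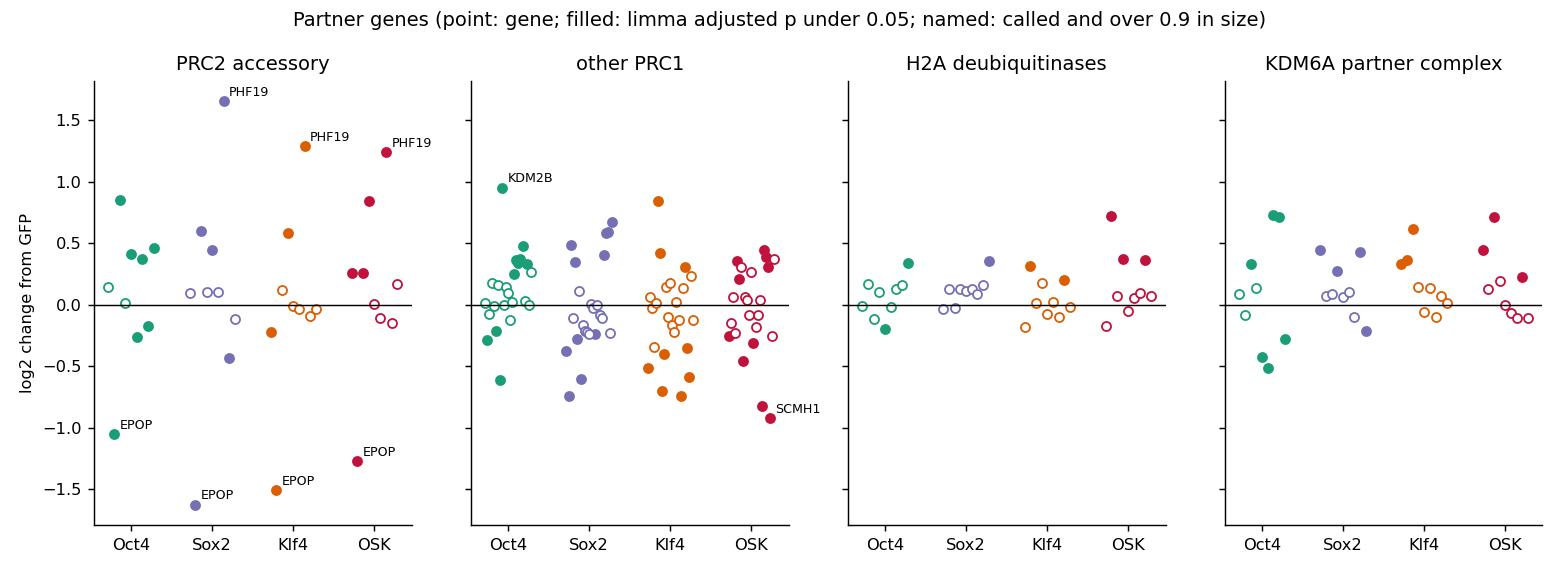
Log2 changes from GFP of 50 of the 51 tested genes of the 4 partner lists by list (panels) and factor (Oct4, Sox2, Klf4 and OSK along each horizontal axis), where each point is 1 gene, filled when the limma adjusted p is under 0.05. PHF19 is the highest point with Sox2 (1.65) and EPOP the lowest with each factor (-1.05 to -1.63).

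The classic Polycomb targets were near silence or at the CDKN2 locus. Of the 39 HOX genes, none passed the filter on low values. HOX genes with at least 1 read numbered 38 in GFP replicate 1, with at most 22 reads (HOXB13), and 19 in OSK replicate 1, with at most 8 reads, while the other 9 libraries had 0 to 5 such genes and at most 2 reads. Those 2 libraries are the ones with many more features detected, so no HOX comparison was made.

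CDKN2B, which encodes the p15 cell cycle inhibitor, was at 5528 to 7639 in the GFP libraries and 5339 to 6102 with Oct4. It was at 7865 to 8501 with Sox2, 3180 to 3941 with Klf4 and 2258 to 2590 with OSK. CDKN2B fell with Klf4 by 0.90 and with OSK by 1.45, as log2 changes (limma adjusted p = 2.48e-05 and 9.23e-08). Its Sox2 rise of 0.31 (adjusted p = 0.0491) was lost in 12 alternatives, including without GFP replicate 1, GFP replicate 3 or either Sox2 library. CDKN2A, which encodes p16 and ARF, was at 84.4 to 95.1 with GFP, 101 to 129.3 with Oct4, 108.8 to 129.3 with Sox2, 123.8 to 124.6 with Klf4 and 61.6 to 78.1 with OSK. No CDKN2A change from GFP passed, in these fits or in the alternatives. The antisense gene CDKN2B-AS1 lies at the same locus, and the strand setting of the counting is not given in the sources used here.

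Across the 11 libraries the pattern most like KDM6B's included BMI1 (Pearson r = 0.978 on log2 values), as a description over libraries that share groups. The closest genes overall were ZBTB18 for BMI1 (0.992), FJX1 for KDM6A (0.992), DLG1 for KDM6B (0.985), RNF130 for JARID2 (0.972), SRR for RNF2 (0.981), CNOT7 for EZH1 (0.981) and UBE3A for EED (0.893). For EZH2 they were NEIL3 (0.967), a DNA glycosylase of dividing cells, and TRAIP (0.962). For RING1 the closest named gene was CSNK2A2 (0.968). Among the members, EZH2 ran opposite to EZH1 (-0.846) and RNF2 (-0.81), while EZH1 and RNF2 ran together (0.88) and SUZ12 followed KDM6B (0.873).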

How the data were processed

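RNA was extracted with TRIzol, enriched with oligo(dT) beads and made into libraries with the NEBNext Ultra II kit, per the labels' protocols. STAR 2.7.1a and featureCounts 1.6.2, with builds GRCh38/hg38 and GRCm38/mm10, are named in the submitters' processing notes, and the annotation, strand setting and normalisation are not given in the sources used here. The deposited values are a normalised count signal with 2 decimals. The authors' values at or under 200 were whole multiples of 1 step per library (all of them, within 0.0061), so reads were recovered by division. In GFP replicates 1 and 2 the step is close to 1, and it rests on 27697 and 13668 values apart from whole numbers.

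Because the values are normalised, the main test was limma 3.58.1 (R 4.3.3; lmFit and eBayes with trend) on log2(value + 1), for genes at 10 or more in at least 2 libraries. All 11 libraries entered 1 fit with a mean per group (6 residual and 9.211 prior degrees of freedom), with Benjamini-Hochberg adjustment over 18828 genes. The script was tested on simulated data. Alternatives were edgeR 4.0.16 and DESeq2 1.42.0 on recovered reads, TMM scaling, pseudocounts of 0.5 and 5, no filter, only the compared groups, a replicate block and leaving out libraries. Leaving out a library of a group of 2 leaves 1 there, and fewer of all genes tested then passed in every comparison with that group. A call lost in such a fit therefore does not show that it rested on that library. Exon lengths are from GENCODE 29 and join all annotated exons of a gene, so they can exceed the length of the transcript expressed.

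The members and lists were chosen with earlier results of these data known. All members that passed are named in each comparison. From every other Polycomb list, at most 3 genes per comparison with GFP are named, those with the largest change among genes past the threshold whose libraries do not overlap. For a gene so named, calls with other factors may be given too. MKI67, TOP2A, MCM2 and E2F1 stand for the proliferation list, and for each member genes of the highest Pearson correlation are given. Results of 2 genes that this rule names are not reported here, and the plot of partner genes leaves out 1 of them. PHF19, EPOP and other partner genes under the alternatives were added after seeing the data.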

Additional observations from a re-analysis of the deposited data

How the results depend on the processing

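No call changed direction under any alternative run. Over the member comparisons, 1543 values kept their side of the threshold, 61 lost the call and 6 gained it. For the partner, target and proliferation genes named, whose alternatives were chosen after seeing the data, these numbers were 2097, 111 and 12. Where a group was left with 1 library, fewer of all genes tested passed in its comparisons. That holds for both comparisons given below without Oct4 replicate 2. Lower counts of members or partner genes in such fits therefore do not show that these genes depend on the library left out. Leaving out 1 library gave 2 to 3 members for Oct4 against GFP, 4 to 6 each for Sox2, Klf4 and OSK, 5 to 6 for OSK against Oct4, 5 to 7 for OSK against Sox2, 1 for OSK against Klf4, 4 to 6 for Oct4 against Sox2 and 6 for the other 2 pairs of single factors. Against the sum of single factors it gave 1 to 3, with 1 member without Oct4 replicate 1 and 1 with no filter on low values, a setting that moves the median of all genes. Without Oct4 replicate 2, Oct4 against Sox2 gave 4 members instead of 7, and Oct4 against GFP gave 16 partner genes instead of 25. Without GFP replicate 1 and OSK replicate 1, the members called against GFP numbered 3, 6, 5 and 5, as with all libraries.

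With the replicate block, the members called were 3 for Oct4, 5 for Sox2, 4 for Klf4, 4 for OSK and 2 against the sum of single factors. Of all 18828 genes tested, 6072, 7051, 5322, 6469 and 5854 passed there, in the same order. The calls lost were EZH1 with Sox2 (adjusted p = 0.105), KDM6B with Klf4 (0.208) and OSK (0.166) and EED against the sum (0.064). GFP replicate 3 is the only library of its number, so the block fit gives the log2 changes from GFP found without that library. For EZH1 with Sox2 the change was -0.1834 in both. The block and the fit without GFP replicate 3 are therefore not separate checks of those changes, although both count among the alternatives. The labels give replicate numbers but no shared culture or day, so the numbers were not taken to pair libraries. Deviations of same-numbered libraries correlated from -0.0693 to 0.435 over 20 pairs. Between groups of 2 libraries both numbers give the same r, because the deviations mirror each other. The highest values, 0.435 and 0.31, came from GFP with OSK, the groups whose replicates 1 stood apart in features detected. The rest ran from -0.0693 to 0.0418. Depth limits RNF2, EZH2 and EED most, since these have the fewest reads, and 2 libraries per group limit every estimate.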
